A study of Homo sapiens with 22 samples.

Results

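The clustered protocadherins are 53 genes in 3 neighbouring arrays on human chromosome 5, and their RNA was followed through libraries made from prostate cancer cells with and without immunoprecipitation of PSF. The members were taken as every gene row whose symbol names a PCDHA, PCDHB or PCDHG family gene, with 1 row per symbol, the row with the highest mean read count over 12 libraries. This gave 15 α, 16 β and 22 γ members out of 20294 gene symbols in the files. PSF, also named SFPQ, is a nuclear RNA-binding protein of the paraspeckle. RNA recovered with an anti-PSF antibody (PSF-RIP) was sequenced beside the input RNA, which had no antibody step, from 3 cell lines. 22Rv1 is a prostate carcinoma line derived from a xenograft, LTAD is grown in medium with 10% charcoal-stripped serum and is known as an androgen-deprived derivative of LNCaP, and LNCaP is a line from a lymph node metastasis. Each line was held for 3 days in 2.5% charcoal-stripped serum and then given 10 nM dihydrotestosterone (DHT), the active androgen, or ethanol vehicle for 24 h. That made 12 libraries with 1 library for each line, treatment and assay, and nothing in the labels gives separate cultures. The DHT and vehicle libraries of a line therefore served as its 2 samples, and p-values measure only the spread between such libraries.

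Clustered protocadherins are cell-surface proteins of the cadherin superfamily, known best from neurons, where each cell uses a different set of them and like isoforms bind like isoforms on the neighbouring cell. In the α and γ arrays every member has its own promoter and its own large variable exon, which encodes the extracellular and transmembrane parts, and each variable exon is spliced to one set of short shared exons at the end of the array that encodes a common intracellular tail. The β genes are single exons with no shared tail. Promoter choice in the arrays is known to involve the factor CTCF, cohesin and DNA methylation, and the C-type members (PCDHAC1, PCDHAC2, PCDHGC3, PCDHGC4 and PCDHGC5) are known to be controlled apart from the others.

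In the hg19 coordinates of the files all members lie on the plus strand of chromosome 5. The α array runs from chr5:140165721-140391929, the β array from chr5:140430961-140627801 and the γ array from chr5:140710252-140892548. The first shared exon of the α array (chr5:140358534-140358592) and of the γ array (chr5:140874374-140874432) are shown because reads on them are counted in every α or every γ row that reaches the end of the array. Both are read from the GRCh37 genome, are 59 bases long and are flanked by AG and GT, and they carry the same base at 39 positions (66.1%).
alpha shared exon 1: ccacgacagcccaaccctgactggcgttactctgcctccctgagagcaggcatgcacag
gamma shared exon 1: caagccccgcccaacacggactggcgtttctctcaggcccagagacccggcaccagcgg
The ends of 4 variable exons are shown because these exons separate the lines in the results that follow. The last 30 exon bases are in lower case and the first intron bases (GT, where the shared exons are joined) in capitals.
PCDHA10 variable exon end: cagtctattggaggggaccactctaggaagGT
PCDHAC1 variable exon end: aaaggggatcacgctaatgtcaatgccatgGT
PCDHGB5 variable exon end: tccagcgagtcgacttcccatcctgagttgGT
PCDHGC3 variable exon end: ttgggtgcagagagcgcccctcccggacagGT

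Promoter sequences are given because members of one array moved in opposite directions between lines. RefSeq promoter windows on GRCh38.p14 were matched for 47 of the 53 members, all but PCDHA3, PCDHA13, PCDHB6, PCDHB11, PCDHGA12 and PCDHGC5. The letters GGCGCTGC and CGCTGNNG, which can overlap, were searched on both strands after these promoters had been looked at. GGCGCTGC stood in 11 of 14 β promoters (78.6%), in 0 of 13 α and 0 of 20 γ promoters, and in 4.32% of 27305 promoters in all. CGCTGNNG stood in 12 of 14 β, 13 of 20 γ and 2 of 13 α promoters, against 23.0% of all promoters. Capitals mark a match in each of the following 60-base stretches (PCDHB2 chr5:141094532-141094591, PCDHB5 chr5:141135167-141135226, PCDHB15 chr5:141245302-141245361, PCDHA10 chr5:140855831-140855890, PCDHGB5 chr5:141397853-141397912 and PCDHGC3 chr5:141475870-141475929, plus strand). The PCDHGC3 stretch holds a further CGCTGNNG match that is left in lower case.
PCDHB2 promoter: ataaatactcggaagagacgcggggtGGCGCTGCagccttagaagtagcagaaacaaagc
PCDHB5 promoter: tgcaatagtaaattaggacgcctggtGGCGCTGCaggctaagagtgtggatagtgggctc
PCDHB15 promoter: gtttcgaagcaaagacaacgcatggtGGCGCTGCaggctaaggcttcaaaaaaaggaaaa
PCDHA10 promoter: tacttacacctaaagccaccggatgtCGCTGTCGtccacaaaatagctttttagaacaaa
PCDHGB5 promoter: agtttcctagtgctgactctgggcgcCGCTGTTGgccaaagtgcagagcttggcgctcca
PCDHGC3 promoter: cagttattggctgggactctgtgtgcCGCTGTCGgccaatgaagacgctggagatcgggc
The same 8 letters stand in the promoters of PCDHB2, which was read in every line, and of PCDHB5, which was nearly unread in one of them. A match is a description of the sequence only.

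The PSF-RIP libraries held between 4641602 and 10439461 mapped reads and the inputs between 1073228 and 3014049, so the inputs carry the larger counting error. All 10 prostate luminal markers (KLK3 among them) had 10 or more reads in the inputs of each line, though not at like levels. Against LNCaP inputs KLK3 differed by -3.34 ± 0.68 in 22Rv1 and -6.14 ± 0.91 in LTAD on the log2 scale (adjusted p = 0.00159 and 0.00187, edgeR). FKBP5, an androgen-induced gene, rose with DHT in the inputs by 3.14 ± 0.23 on the log2 scale (SE, adjusted p = 5.49e-05, edgeR's quasi-likelihood test). Of 10 neuroendocrine and neural markers, 8 of which are in the files, 5 had 10 or more reads in 22Rv1 inputs, 3 in LTAD inputs and 4 in LNCaP inputs. Their summed level was 139 RPM (reads scaled to the mapped reads of the library) in 22Rv1 inputs, 93.3 in LTAD inputs and 42.8 in LNCaP inputs. Of the 6 such markers that could be tested, 4 were higher and 1 lower in 22Rv1 than in LNCaP inputs, where 26.6% of all genes were higher and 23.3% lower, with SYP (synaptophysin) higher by 4.10 ± 0.32 on the log2 scale (adjusted p = 1.14e-06, edgeR). Their part in the protocadherin results was not tested. In bulk RNA, fewer cells with a transcript and less transcript per cell cannot be told apart.

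Rows of 2 kinds were used. The chosen row of an α or γ member with the most reads spans its variable exon and the shared exons, so its reads are largely those of all its neighbours. In 22Rv1 PSF-RIP libraries the shared exons made up 57.0% to 98.6% of the reads of the chosen α rows. The files also list a transcript without introns for each of these members, with its own variable exon and no shared exon. This variable-exon row tells the members apart, but it does not match the exon exactly. The rows of PCDHA10, PCDHAC1, PCDHGB5 and PCDHGC3 end at 140238168, 140309097, 140780151 and 140858362. The GT shown above ends at 140238023, 140308912, 140780093 and 140858115, so at least these rows hold some intron bases. The row of PCDHAC2 starts at 140346352, after the start of its chosen row at 140345747. That of PCDHA9, at 6388 bases, is longer than its whole spliced transcript of 5984 bases. For the β genes both rows are the same kind of single exon. The files mark the counted reads as unique, and the share of 50-base windows that occur once within the region had a median of 90.9% over α, 84.3% over β and 93.0% over γ variable exons, with the lowest at 52.3%, that of PCDHB8. Levels of near-identical members such as PCDHB8 are uncertain to that extent.

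The set of members used by 22Rv1 differed from those of LTAD and LNCaP. A member was counted as expressed where its reads over the DHT and vehicle inputs of a line came to 10 or more. On variable-exon rows 28 members were expressed in 22Rv1 inputs (9 α, 11 β and 8 γ), 15 in LTAD inputs (0 α, 8 β and 7 γ) and 19 in LNCaP inputs (0 α, 10 β and 9 γ). The inputs differed in depth in the same order, with 5424163 mapped reads in 22Rv1, 2659445 in LTAD and 3575318 in LNCaP, the shallowest line having the lowest count. With reads scaled to the shallowest line the counts were 17, 15 and 12. On the chosen rows with shared exons the unscaled counts were 48, 30 and 32, since all 22 γ rows, and in 22Rv1 all 15 α rows, pass on shared reads. In the deeper PSF-RIP libraries 49 members passed in 22Rv1, 34 in LTAD and 32 in LNCaP on variable-exon rows, again with 0 α members in LTAD and LNCaP, and 52, 37 and 36 on the chosen rows.

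**Figure D1:**
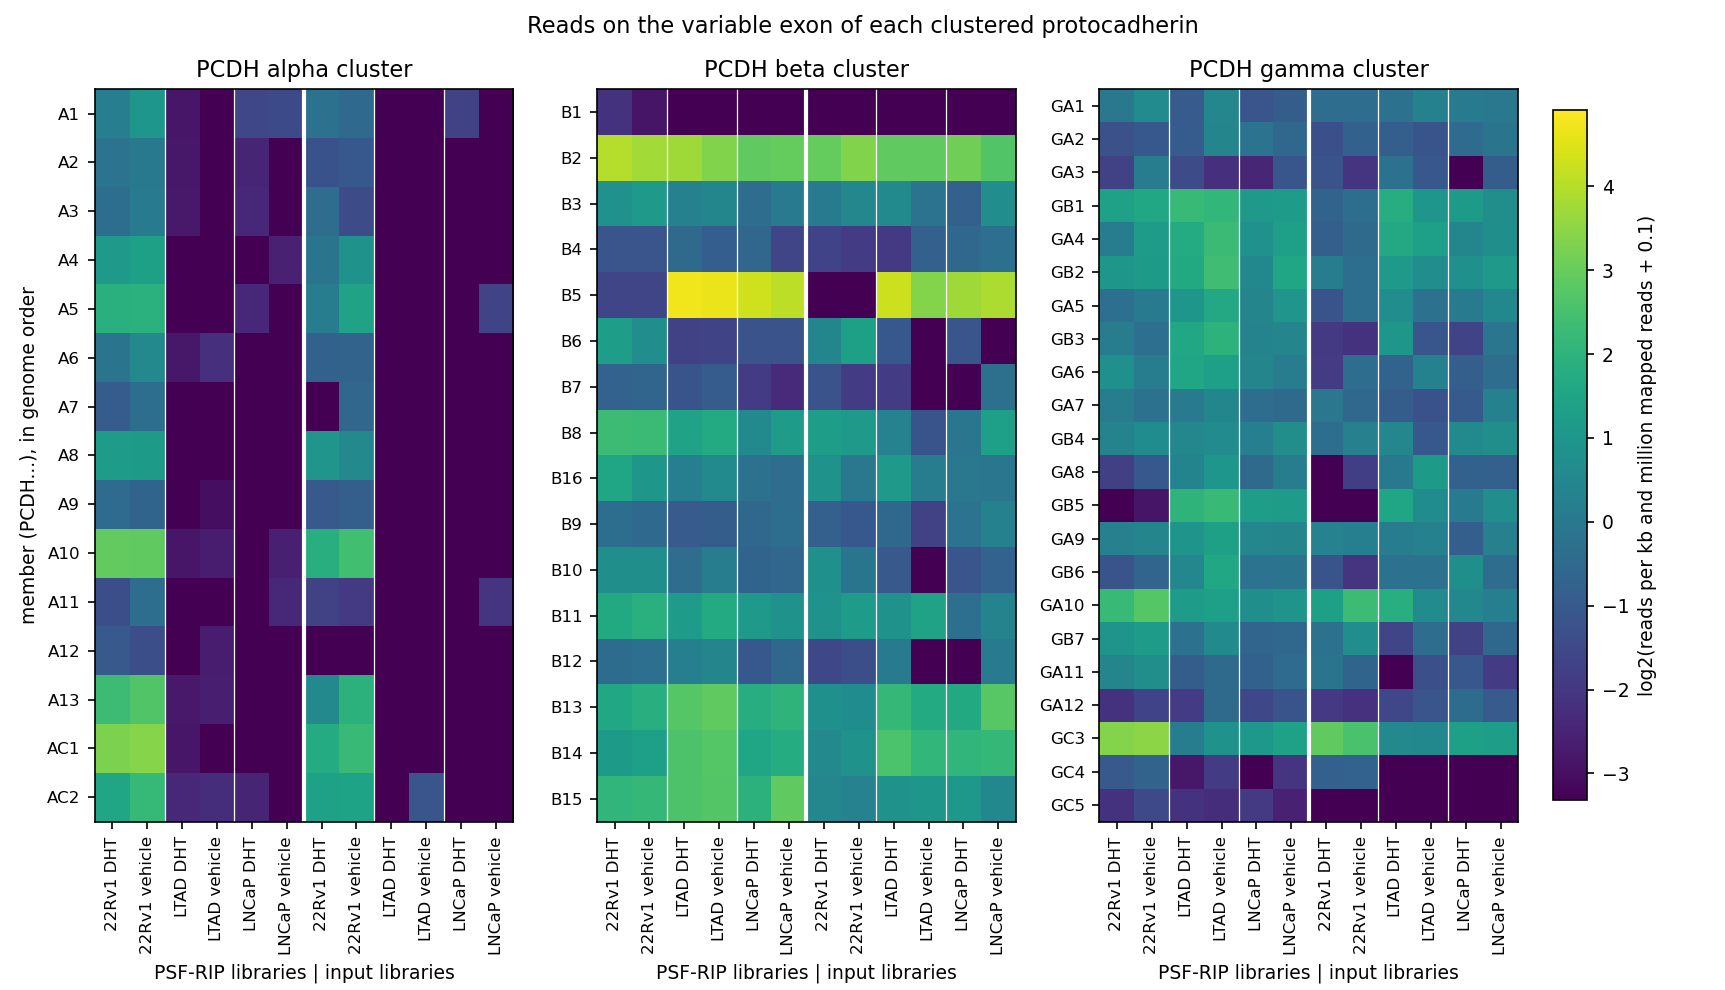
Level of each member's variable exon in each of the 12 libraries, as log2 of RPKM (RPM divided by the length in kb) plus 0.1 (colour), with members in genome order down the page, PSF-RIP libraries on the left of each panel and inputs on the right. The α panel is brightest in the 22Rv1 libraries and dark or nearly so in the others, PCDHB5 is bright in LTAD and LNCaP and dark in 22Rv1, and PCDHGC3 is brightest in 22Rv1.

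Per length, the most abundant members of 22Rv1 also differed from those of LTAD and LNCaP. In 22Rv1 inputs they were PCDHB2 with 8.91, PCDHGC3 with 6.49 and PCDHA10 with 4.41 RPKM. In LTAD inputs they were PCDHB5 with 14.8, PCDHB2 with 7.33 and PCDHB14 with 5.06. In LNCaP inputs they were PCDHB5 with 14.1, PCDHB2 with 7.49 and PCDHB13 with 4.91. PCDHB13 ranked 4 in LTAD inputs with 3.76, and PCDHB14 ranked 4 in LNCaP inputs with 4.30, so LTAD and LNCaP shared their leading members. PCDHB2 was thus among the highest in every line, while PCDHB5, the leading member of LTAD and LNCaP, had no read in the 22Rv1 inputs.

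The α array was read in 22Rv1 and hardly at all in LTAD or LNCaP. Summed over the 15 variable exons, the 22Rv1 PSF-RIP libraries held 603 (DHT) and 1239 (vehicle) reads, those of LTAD 9 and 8, and those of LNCaP 7 and 8. The inputs held 113 and 203 reads in 22Rv1, 0 and 1 in LTAD, and 1 and 2 in LNCaP. The 22Rv1 libraries lay above every library of the other lines. After scaling for library size, α reads in 22Rv1 were 83.7 times those in LNCaP in the inputs (95% interval 28.4 to 408, counting error only) and 83.3 times in PSF-RIP (50.4 to 149). Against LTAD the ratio was 216 in the inputs (38.5 to 8552) and 130 in PSF-RIP (80.9 to 223).

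Within 22Rv1 the α members were unequal. PCDHAC1, a C-type member at the far end of the array, had 158 (DHT) and 307 (vehicle) reads in PSF-RIP and 22 and 39 in the inputs of 22Rv1, against 0 or 1 read in each library of LTAD and LNCaP. It took 26.2% and 24.8% of the α reads of the 22Rv1 PSF-RIP libraries. PCDHA10 followed with 120 and 207 reads in PSF-RIP and 23 and 43 in the inputs. Both were read in all 4 libraries of 22Rv1 and nowhere else above 1 read.

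PCDHA13 had 70 and 158 reads in 22Rv1 PSF-RIP and 8 and 28 in 22Rv1 inputs, PCDHA5 had 53 and 95 against 6 and 19, and PCDHAC2, the other C-type α member, had 44 and 123 against 16 and 21. At the low end PCDHA12 had 6 and 8 reads in 22Rv1 PSF-RIP and 0 in both inputs. Since the LNCaP inputs held 0 variable-exon reads of PCDHA10, PCDHAC1, PCDHA13 and PCDHAC2, folds are lower bounds against a floor of 3 reads over both libraries. PCDHA10 was at least 17.5-fold, PCDHAC1 at least 16.2-fold, PCDHAC2 at least 9.80-fold and PCDHA13 at least 9.53-fold higher in 22Rv1 than in LNCaP inputs. Against LTAD inputs PCDHA10 was at least 15.0-fold and PCDHAC1 at least 13.9-fold higher.

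In PSF-RIP, against the same floor, PCDHAC1 was 105-fold higher in 22Rv1 than in LNCaP (lower 95% limit 85.2) and PCDHA13 was 51.6-fold higher (41.6). On variable-exon rows 9 of the 15 α members passed the filter on low counts, and they passed it through their 22Rv1 reads. Of these 9, all were called higher in 22Rv1 against LTAD in the inputs and in both PSF-RIP comparisons, and 8 against LNCaP in the inputs, all but PCDHA1 (5 and 5 reads in 22Rv1 inputs, 1 and 0 in LNCaP inputs). Over all genes 26.1% to 36.8% were higher in these comparisons. Given the filter, the counts of α members give no support of their own. PCDHA10 had an adjusted p of 9.36e-05 and PCDHAC1 of 0.000227 in 22Rv1 against LNCaP inputs (edgeR, higher in 2 of 2 treatments). DESeq2 did not call PCDHAC1 on its variable exon in any of the 4 comparisons (adjusted p = 0.289 and 0.31 in the inputs and 0.113 and 0.13 in PSF-RIP, against LNCaP and LTAD). The chosen rows called all 15 α members higher in 22Rv1 in each of these 4 comparisons, where 26.3% to 36.9% of all genes were higher. These 15 rows share one set of reads, so the calls are not independent. They include PCDHA12, whose own exon had no input read. Its chosen row held 92 and 136 reads in the 22Rv1 inputs, all of them on shared exons.

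The β array was read in all 3 lines, with members that differed between them in both directions. The 16 genes together held 822 and 1380 reads in 22Rv1 PSF-RIP, 1846 and 1467 in LTAD and 641 and 817 in LNCaP. The summed level in 22Rv1 was 0.728 times that in LNCaP in the inputs (0.636 to 0.833) and 1.02 times in PSF-RIP (0.958 to 1.10). In LTAD it was 0.901 times LNCaP in the inputs (0.782 to 1.04) and 1.29 times in PSF-RIP (1.21 to 1.37). Set against LTAD, the summed level in 22Rv1 was 0.808 times in the inputs (0.700 to 0.934) and 0.796 times in PSF-RIP (0.754 to 0.841). Single genes were much further apart than the sums.

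PCDHB5 had 4 (DHT) and 7 (vehicle) reads in 22Rv1 PSF-RIP, 664 and 500 in LTAD PSF-RIP, and 270 and 278 in LNCaP PSF-RIP. Its inputs held 0 and 0 reads in 22Rv1, 90 and 32 in LTAD, and 68 and 79 in LNCaP. The 22Rv1 libraries were below every library of the other lines, and those of LTAD and LNCaP overlapped in the inputs. In the inputs PCDHB5 was at least 61.7-fold lower in 22Rv1 than in LNCaP and at least 59.5-fold lower than in LTAD. In PSF-RIP it fell in 22Rv1, with log2 differences of -6.13 ± 0.33 against LNCaP and -6.38 ± 0.32 against LTAD (SE, adjusted p = 6.65e-08 and 3.47e-08, edgeR, lower in 2 of 2 treatments each). Intergenic reads on the plus strand just downstream (chr5:140517710-140529602) followed the same order, with 2 and 1 in 22Rv1 PSF-RIP, 127 and 110 in LTAD and 46 and 81 in LNCaP.

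PCDHB6 had the opposite pattern. It had 44 and 53 reads in 22Rv1 PSF-RIP, 6 and 5 in LTAD and 5 and 6 in LNCaP, and its inputs held 10 and 24, 2 and 0, and 2 and 0 reads in the same order of lines. In each assay the 22Rv1 libraries stood above all others. It rose in 22Rv1 by 2.59 ± 0.53 against LNCaP and by 3.40 ± 0.52 against LTAD in PSF-RIP (adjusted p = 0.00108 and 0.000104), and by 3.66 ± 0.90 and 3.41 ± 0.92 in the inputs (adjusted p = 0.00529 and 0.00934, edgeR).

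PCDHB14 had 50 and 99 reads in 22Rv1 PSF-RIP, 206 and 177 in LTAD PSF-RIP, and 51 and 74 in LNCaP PSF-RIP. As a share of mapped reads the LTAD libraries were the highest and the 22Rv1 libraries the lowest. It fell in 22Rv1 inputs, with differences of -1.18 ± 0.31 against LNCaP and -1.24 ± 0.32 against LTAD (adjusted p = 0.0076 and 0.00689), and in PSF-RIP, with -1.13 ± 0.21 against LTAD (adjusted p = 0.000448, edgeR). PCDHB13 fell in 22Rv1, with -1.36 ± 0.37 against LNCaP in the inputs and -0.79 ± 0.24 against LTAD in PSF-RIP (adjusted p = 0.00954 and 0.0115, edgeR).

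PCDHB2, which was read in every line, had 259 and 391 reads in 22Rv1 PSF-RIP, 321 and 192 in LTAD and 94 and 119 in LNCaP, and 52 and 84, 32 and 22, and 42 and 32 reads in the inputs. It rose in 22Rv1 PSF-RIP by 1.07 ± 0.20 against LNCaP and by 0.65 ± 0.19 against LTAD (adjusted p = 0.000574 and 0.00927, edgeR). PCDHB3, PCDHB8, PCDHB10, PCDHB11 and PCDHB16 were also higher in 22Rv1 in both PSF-RIP comparisons, by 0.68 (PCDHB11 against LTAD) to 1.83 (PCDHB16 against LNCaP) on the log2 scale. PCDHB1 was the one member with no more than 2 reads in any library, and PCDHB9, PCDHB12 and PCDHB15 were not called between any lines. PCDHB4 and PCDHB7 had too few reads to be tested, and PCDHB7 had 11 and 21 reads in 22Rv1 PSF-RIP and 3 and 2 in LNCaP PSF-RIP, a ratio of 4.34 (95% interval 1.68 to 14.3, counting error only). Of the 16 β genes 13 passed the filter on low counts. Their median log2 difference in PSF-RIP between 22Rv1 and LNCaP was 0.95, against 0.053 over all genes tested, and in the inputs 0.42, against -0.0046. Against LTAD it was 0.68 in PSF-RIP (0.13 over all genes) and 0.37 in the inputs (0.023 over all genes).

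**Figure D2:**
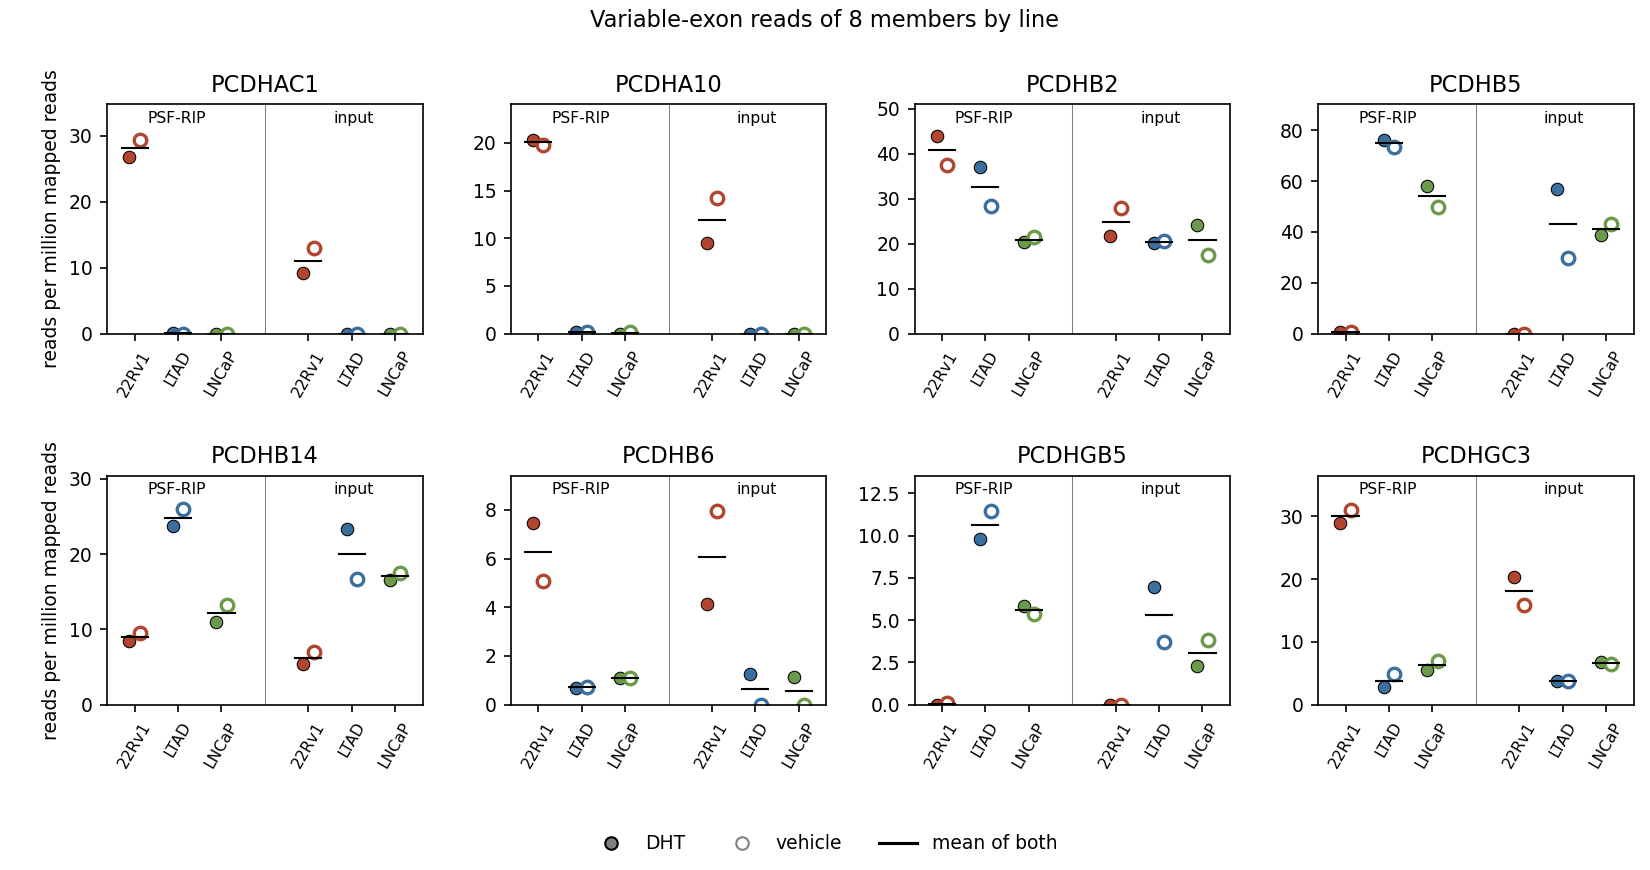
Variable-exon level in RPM of 8 members in PSF-RIP (left of each panel) and input (right) libraries of 22Rv1, LTAD and LNCaP, filled points for DHT, open points for vehicle and a bar for their mean. PCDHAC1 and PCDHA10 are near 0 outside 22Rv1, PCDHB5 and PCDHGB5 are near 0 within it, and PCDHB2 is read in all lines.

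The γ array was also read in every line, and its members changed in both directions. The 22 variable exons held 514 and 1099 reads in 22Rv1 PSF-RIP, 780 and 843 in LTAD and 262 and 382 in LNCaP. PCDHGC3, the C-type member with most reads, had 171 and 324 reads in 22Rv1 PSF-RIP, 24 and 33 in LTAD and 26 and 39 in LNCaP. In the inputs it had 49 and 48 reads in 22Rv1, 6 and 4 in LTAD and 12 and 12 in LNCaP. It stood above the other lines in all 4 libraries of 22Rv1, where it took 33.3% and 29.5% of the γ reads of PSF-RIP.

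PCDHGC3 rose in 22Rv1 inputs by 1.69 ± 0.30 against LNCaP and by 2.74 ± 0.37 against LTAD (adjusted p = 0.000671 and 8.2e-05), and in PSF-RIP by 2.37 ± 0.22 and 3.34 ± 0.22 (adjusted p = 2.34e-06 and 1.3e-07, edgeR, higher in 2 of 2 treatments each). The other C-type members were sparse. PCDHGC4 had 6 and 14 reads in 22Rv1 PSF-RIP and 3 and 4 in its inputs, against 0 to 3 in the libraries of the other lines. PCDHGC5 had 2 and 7 reads in 22Rv1 PSF-RIP, at most 3 in any PSF-RIP library of the other lines and 0 in every input. Neither passed the filter on variable-exon rows.

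PCDHGB5, like PCDHB5, was nearly unread in 22Rv1. Its variable exon had 0 and 1 reads in 22Rv1 PSF-RIP, 85 and 78 in LTAD and 27 and 30 in LNCaP, and its inputs held 0 and 0, 11 and 4, and 4 and 7 reads. The 22Rv1 libraries did not overlap those of the other lines in either assay. In the inputs it was at least 4.62-fold lower in 22Rv1 than in LNCaP and at least 7.32-fold lower than in LTAD. In PSF-RIP the ratio of 22Rv1 to LNCaP was 0.0119 (95% interval 0.0003 to 0.069) and of 22Rv1 to LTAD 0.0074 (0.00019 to 0.0415), counting error only.

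The row of PCDHGB5 with the shared exons gave the opposite sign. It held 204 and 468 reads in 22Rv1 PSF-RIP against 91 and 117 in LNCaP PSF-RIP, and it was called higher in 22Rv1 by 1.08 ± 0.20 in PSF-RIP (adjusted p = 0.000488) and by 0.82 ± 0.24 in the inputs (adjusted p = 0.0137, edgeR). At most 1 of its reads in a 22Rv1 library was on its own exon. The same holds in kind for the whole array. On the chosen rows all 22 γ members were called higher in 22Rv1 in all 4 comparisons with LTAD and LNCaP, by 0.80 to 2.01 on the log2 scale. Of all genes 26.3% to 36.9% were higher in them. The γ calls share one set of reads and are not independent.

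On variable-exon rows 17 of the 22 γ members could be tested. Against LNCaP in the inputs 3 were higher in 22Rv1 (PCDHGA10 by 1.89 ± 0.53, PCDHGB7 by 1.78 ± 0.69 and PCDHGC3) and 1 lower (PCDHGB5). Of all genes 26.4% were higher and 23.3% lower. PCDHGB7 had only 5 and 13 reads in 22Rv1 inputs and 1 and 3 in LNCaP inputs. Against LTAD in the inputs PCDHGC3 was higher and 4 were lower, PCDHGA8 with -3.33 ± 0.89, PCDHGA4 with -1.87 ± 0.57, PCDHGB1 with -1.65 ± 0.56 and PCDHGB5. Here 26.1% of all genes were higher and 22.2% lower. PCDHGA8 had only 0 and 2 reads in 22Rv1 inputs and 5 and 8 in LTAD inputs. Against LNCaP in PSF-RIP 5 were higher (PCDHGA1, PCDHGA10, PCDHGA11, PCDHGB7 and PCDHGC3) and 2 lower (PCDHGA8 and PCDHGB5), with 33.3% and 27.7% of all genes. Against LTAD in PSF-RIP 4 were higher (PCDHGA10, PCDHGA11, PCDHGB7 and PCDHGC3) and 6 lower (PCDHGA4, PCDHGA5, PCDHGA8, PCDHGB3, PCDHGB5 and PCDHGB6), with 36.8% and 27% of all genes.

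Over all 3 arrays, edgeR's quasi-likelihood test with Benjamini-Hochberg adjustment at 0.05 over all genes called 13 members higher and 4 lower on variable-exon rows in 22Rv1 against LNCaP inputs, of 39 members tested. The background was high, with 26.4% of all genes higher and 23.3% lower. Against LTAD inputs 14 were higher and 6 lower, against 26.1% and 22.2% of all genes. In PSF-RIP 21 were higher and 3 lower against LNCaP (background 33.3% and 27.7%), and 20 higher and 9 lower against LTAD (background 36.8% and 27%). DESeq2 called fewer, with 10 in place of 20 against LTAD inputs, 15 in place of 24 against LNCaP in PSF-RIP and 14 in place of 29 against LTAD in PSF-RIP. The shares of all genes above are those of edgeR. None is given here for DESeq2, so its counts have no background to be set against.

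On the chosen rows, of 50 members tested, 39 were higher and 3 lower in 22Rv1 against LNCaP inputs and 41 and 2 against LTAD inputs, where 49.9% and 48.5% of all genes were called in either direction. In PSF-RIP 44 were higher and 1 lower against LNCaP, and 44 higher and 3 lower against LTAD, where 61.1% and 64% of all genes were called. The members that passed the filter did so largely through the line where they are high, so the counts describe the lists and give no support of their own. The shares of all genes are for all 12 libraries, and none is given here with a library left out. The variable-exon count against LNCaP inputs fell to 7 without the LNCaP vehicle input and to 9 without the 22Rv1 vehicle input. The count against LTAD inputs fell to 11 without the 22Rv1 DHT or the LTAD DHT input and to 13 without the 22Rv1 vehicle input.

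Few members were called between LTAD and LNCaP. In the inputs 0 members were called on either kind of row (edgeR; 4 members on chosen rows and 1 on variable-exon rows at an unadjusted p under 0.05, and 0 by DESeq2), where 8.21% of all genes were called. That share is for the adjusted threshold, and none is given here for the unadjusted one. In PSF-RIP the chosen rows called 1 member, PCDHB14, higher in LTAD by 0.82 ± 0.21 (adjusted p = 0.0182, higher in 2 of 2 treatments), where 19.9% of all genes were called. The variable-exon rows called 3 (background 19.9%), PCDHB14, PCDHGB3 higher by 1.24 ± 0.40 (adjusted p = 0.0469) and PCDHGC3 lower in LTAD with -0.97 ± 0.27 (adjusted p = 0.0259). The chosen-row call was lost with each of the 4 libraries left out in turn and with DESeq2 (adjusted p for PCDHB14 0.0678 to 0.123 over these), and on variable-exon rows PCDHGC3 alone was called without the LTAD vehicle library and none without the others.

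Between PSF-RIP and input few members passed the threshold. On the chosen rows 1 of 50 tested members was called, against 58% of all genes. The 15 α rows among them share reads, as do the 22 γ rows, so the 50 are not separate units. Under the alternative settings this count ran from 1 to 29, while the 58% is for the main fit only. On variable-exon rows 4 of 37 were called, all higher in PSF-RIP, against 58.1% of all genes. The median γ variable-exon row held 2 to 5 reads in an input library, which limits what could be called. PCDHB15, a single-exon β gene, had 71 (DHT) and 131 (vehicle) reads in PSF-RIP and 9 and 10 in the inputs of 22Rv1, 149 and 126 against 8 and 6 in LTAD, and 51 and 117 against 10 and 7 in LNCaP. Its share of mapped reads was higher in PSF-RIP in each of the 6 pairs. It rose by 1.39 ± 0.21 on the log2 scale (SE, adjusted p = 8.25e-06, edgeR), with single pairs between 0.63 and 2.02.

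PCDHGB3 had 15 and 19 reads in 22Rv1 PSF-RIP against 1 and 1 in its inputs, 64 and 68 against 8 and 1 in LTAD, and 14 and 18 against 1 and 4 in LNCaP. It rose by 1.15 ± 0.37 (adjusted p = 0.0118, higher in 6 of 6 pairs). PCDHGA6 had 24 and 26 against 1 and 5 reads in 22Rv1, 59 and 40 against 2 and 3 in LTAD, and 14 and 14 against 2 and 3 in LNCaP, and rose by 1.07 ± 0.35 (adjusted p = 0.0137, higher in 6 of 6 pairs, edgeR). Both rest on inputs with fewer than 9 reads each. PCDHGB3 was not called without the 22Rv1 libraries (adjusted p = 0.0773) and PCDHGA6 not without the LTAD libraries (adjusted p = 0.13).

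PCDHAC1 rose by 0.87 ± 0.25 (adjusted p = 0.00691, edgeR), a call that rests on 22Rv1, where the difference was 1.07 with DHT and 0.69 with vehicle. LNCaP had no read of it, it was higher in 3 of 6 pairs, and DESeq2 did not call it (adjusted p = 0.297). The C-type members PCDHAC2 and PCDHGC3 had differences of 0.02 ± 0.32 and 0.03 ± 0.18 that were not called. PCDHB5 was 0.29 ± 0.16 (adjusted p = 0.132) and PCDHB2 0.11 ± 0.14 (adjusted p = 0.536).

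**Figure D3:**
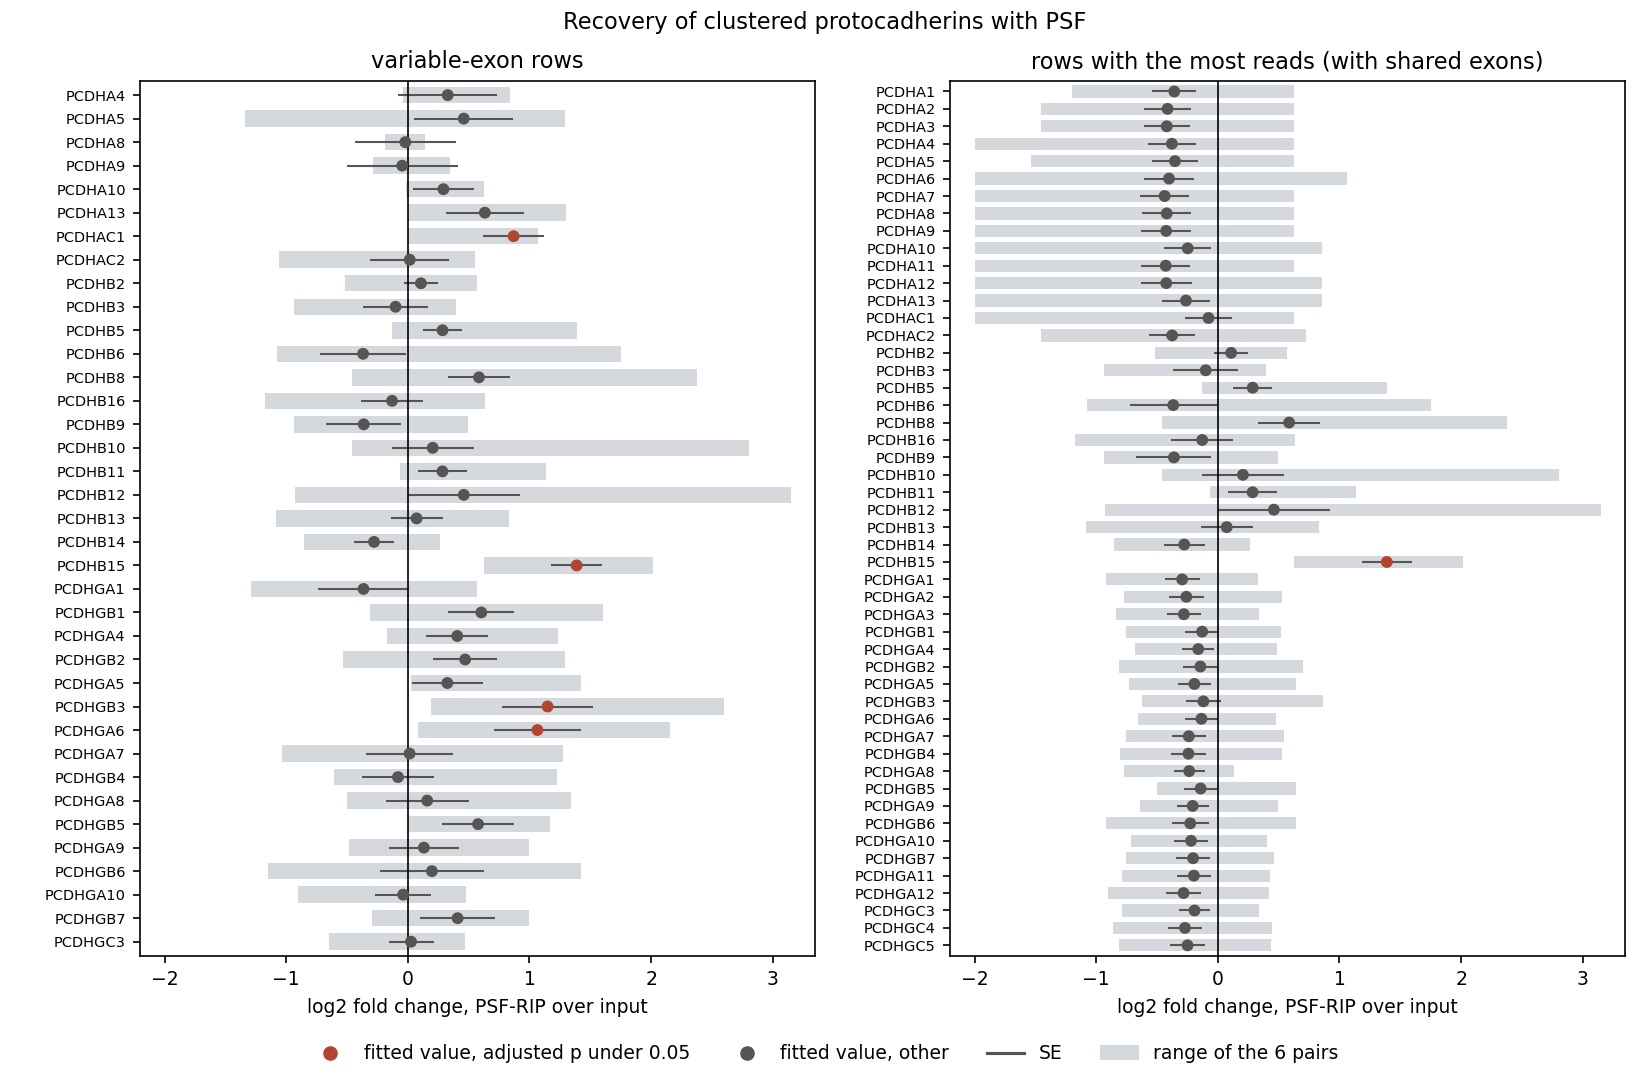
Log2 fold change of PSF-RIP over input for each tested member, on variable-exon rows (left) and on the rows with the most reads, which hold the shared exons (right), with its SE as a line and the range of the 6 line-treatment pairs as a grey bar. Red points passed an adjusted p of 0.05, and most α and γ members lie above 0 on their own exons and below 0 on the rows with shared exons.

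Most α and γ members lay above 0 on their own exons and below 0 on the rows with shared exons. On variable-exon rows the median log2 difference of PSF-RIP over input was 0.31 for 8 tested α members and 0.26 for 16 tested γ members. Some of these rows hold intron bases beside the exon. On the chosen rows it was -0.40 for 15 α and -0.21 for 22 γ members, with 0 of either array above 0. The 5 members below 0 on their own exons as well were PCDHA8, PCDHA9, PCDHGA1, PCDHGA10 and PCDHGB4, with values from -0.36 to -0.02. Single pairs did not all share the sign of the chosen rows. All 22 γ rows were above 0 in the LTAD vehicle pair (0.13 to 0.87) and all below 0 in the LNCaP DHT pair (-0.92 to -0.50). The 15 α rows were all above 0 in the LTAD DHT pair and all below 0 in the LNCaP DHT and 22Rv1 DHT pairs. In LTAD and LNCaP each α row held at most 5 reads in a library, so the α values rest mainly on 22Rv1. The median of all genes was 0.053 on the chosen rows and 0.054 on variable-exon rows, and 13 tested β members had a median of 0.11. With each line-treatment pair as a replicate block the chosen rows called 9 members, 2 higher (PCDHB15 and PCDHB8) and 7 α members lower. With an offset for exonic length they called 29, 1 higher and 28 lower. No share of all genes is given here for the block or the offset, so these counts have no background to be set against. The rows of an array also share reads.

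The shared exons themselves were a smaller part of the reads in PSF-RIP than in input. In 22Rv1 they held 207 (DHT) and 544 (vehicle) α reads in PSF-RIP, 25.6% and 30.5% of all shared and variable α exon reads, against 92 and 136 reads or 44.9% and 40.1% in the inputs. For the γ array of 22Rv1 the share was 28.4% and 29.8% in PSF-RIP against 35.8% and 38.3% in the inputs. In LTAD it was 14.5% and 14.5% against 19.7% and 18.3%, and in LNCaP 19.9% and 18.7% against 30.6% and 22.9%. It was lower in PSF-RIP in both α pairs and in 6 of 6 γ pairs. Reads on the intron bases within some variable-exon rows count as variable reads here. The exact 95% intervals did not overlap in the α pairs and overlapped in 5 of the 6 γ pairs.

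**Figure D4:**
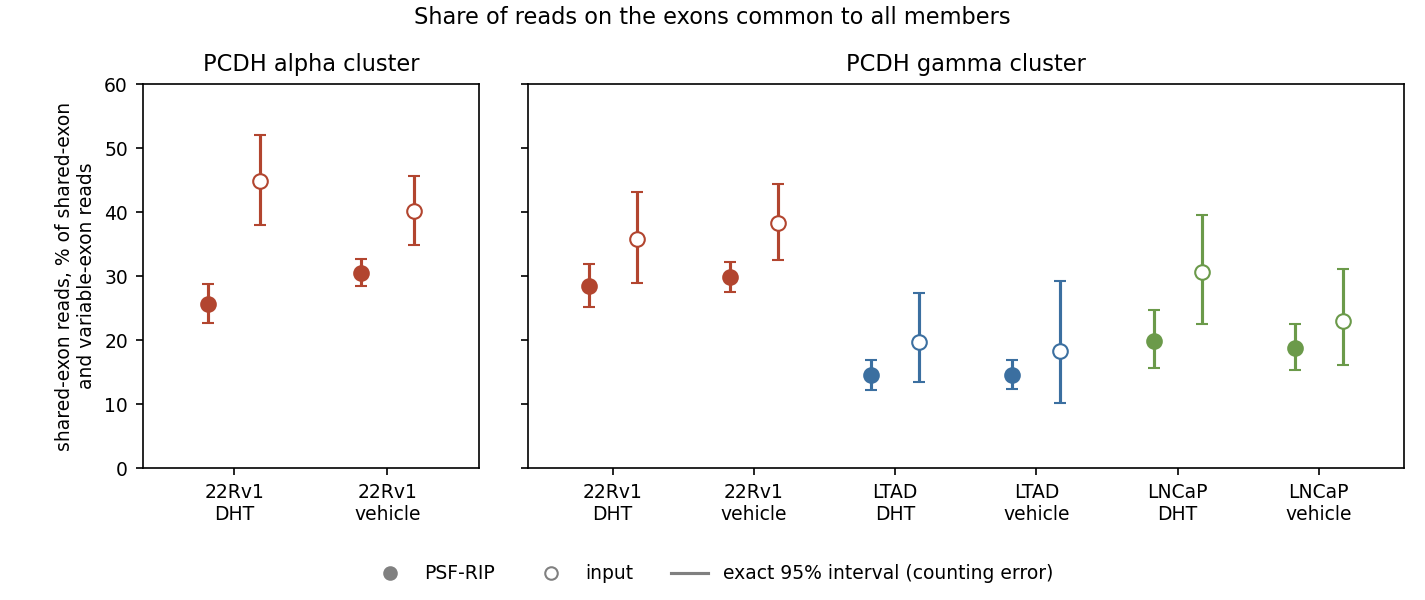
Reads on the shared exons as a percentage of shared-exon and variable-exon reads, for the α array in 22Rv1 (left) and the γ array in 3 lines (right), filled points for PSF-RIP, open points for input and bars for exact 95% intervals that cover counting error only. Each filled point lies below the open point of its pair, and the γ share is highest in 22Rv1.

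In tests of the difference in PSF-RIP recovery itself, 22Rv1 against LNCaP and LTAD against LNCaP each called 0 members and 0% of all genes (edgeR; 11 and 7 members on chosen rows and 3 and 2 on variable-exon rows at an unadjusted p under 0.05, and 0 by DESeq2). No share of all genes is given here for the unadjusted threshold, and chosen rows of an array share reads. With each line-treatment pair as a replicate block, PCDHB13 was called in both differences, as were 3.01% and 2.01% of all genes on variable-exon rows. Without the block PCDHB13 had the smallest p of the members in both on variable-exon rows, with differences of 1.29 ± 0.46 (adjusted p = 0.839) and 1.23 ± 0.44 (adjusted p = 0.935).

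DHT moved no member past the threshold. In the inputs 0 members were called on either kind of row, against 0.617% of all genes, and in PSF-RIP 0, against 2.9% of all genes. At an unadjusted p under 0.05 there were 0 and 32 members on chosen rows and 2 and 4 on variable-exon rows in inputs and PSF-RIP, and DESeq2 called 0. The 32 include 14 α and 18 γ rows that share reads. The shares of all genes above are for the adjusted threshold. None is given here for the unadjusted one, so these counts have no background to be set against. In PSF-RIP the median log2 difference, DHT over vehicle, was -0.40 on the chosen rows and -0.26 on variable-exon rows, against -0.04 over all genes.

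The variable exons with the smallest p for DHT in PSF-RIP were PCDHGA4 (-0.71 ± 0.24, adjusted p = 0.137), PCDHGA1 (-1.03 ± 0.37, adjusted p = 0.167) and PCDHGB2 (-0.64 ± 0.24, adjusted p = 0.179), each lower with DHT in 3 of 3 lines. In the inputs PCDHA13 was -1.60 ± 0.61 (adjusted p = 0.361, edgeR), with 8 reads with DHT against 28 with vehicle in 22Rv1 and none elsewhere. PCDHAC1, PCDHAC2 and PCDHGC3 had DHT differences of -0.20 ± 0.32, -0.65 ± 0.42 and -0.37 ± 0.19 in PSF-RIP, none of them called.

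Reads outside the exons followed the same lines. In the α array, intron reads that lie in the first intron of PCDHA1 but in no later variable exon came to 363 and 755 in 22Rv1 PSF-RIP, 8 and 1 in LTAD and 1 and 4 in LNCaP, and to 90 and 117, 1 and 0, and 0 and 3 in the inputs. The corresponding γ reads were 149 and 297 in 22Rv1 PSF-RIP, 325 and 324 in LTAD and 83 and 126 in LNCaP. The γ inputs held 42 and 52 reads in 22Rv1, 28 and 20 in LTAD and 32 and 36 in LNCaP. As a share of mapped reads the LTAD libraries were the highest in PSF-RIP, at 37.4 and 47.7 RPM, against 17.9 to 28.4 RPM in 22Rv1 and LNCaP. In the inputs the 3 lines lay together, between 17.3 and 19.7 RPM.

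Antisense reads were found across the α array of 22Rv1. The antisense row of PCDHA1, which spans the array, held 298 and 516 reads in 22Rv1 PSF-RIP and 70 and 94 in its inputs, against 0 or 1 in every library of LTAD and LNCaP. These reads lay mainly in 2 stretches. Over both 22Rv1 PSF-RIP libraries the intervals that begin at PCDHA1, PCDHA2, PCDHA3 and PCDHA4 held 65, 127, 95 and 40. Those that begin at PCDHA10, PCDHA11 and PCDHA12 held 89, 188 and 159, while those that begin at PCDHA5 to PCDHA9 held 6 to 11 each. The input reads were highest in the same intervals, with 30 at PCDHA2, 36 at PCDHA11 and 39 at PCDHA12. In the β array the summed antisense rows held at most 1 read per library, beside 641 to 1846 sense reads in PSF-RIP.

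**Figure D5:**
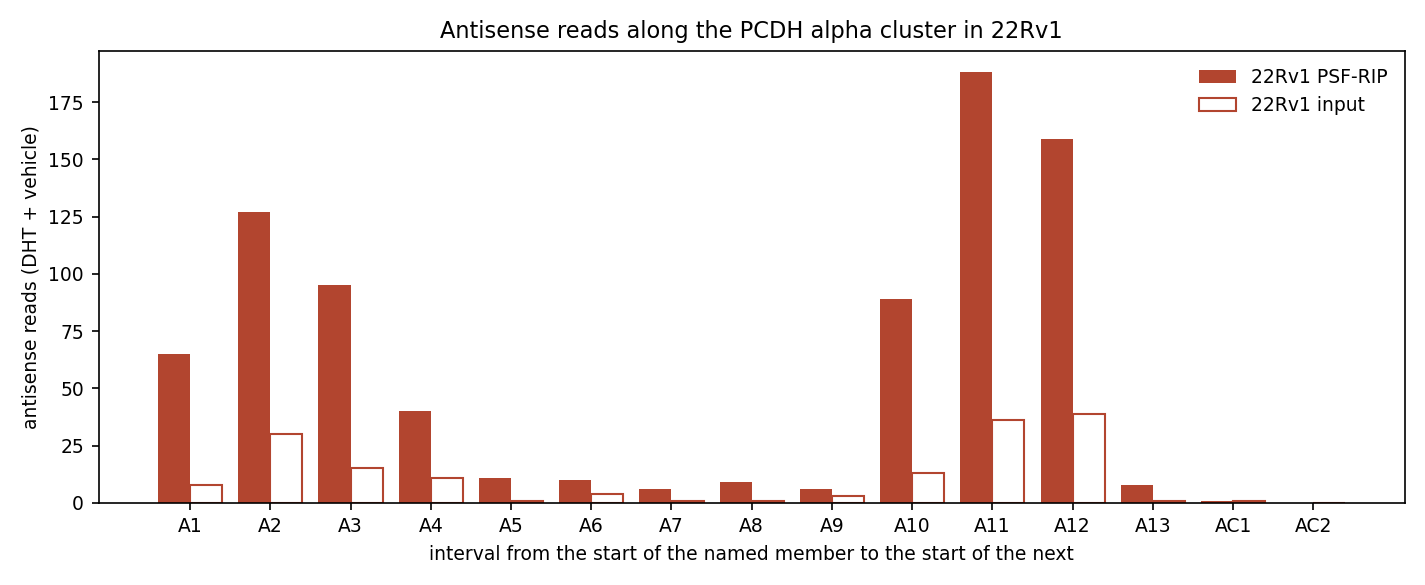
Antisense reads of 22Rv1, DHT and vehicle libraries summed, in each interval from the start of one α member to the start of the next, filled bars for PSF-RIP and open bars for input. The bars peak from PCDHA2 to PCDHA3 and from PCDHA10 to PCDHA12 in both assays and are near 0 after PCDHA13.

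PSF-CLIP, in which protein and RNA are joined by ultraviolet light before recovery, was deposited for LNCaP as 4 peak lists with 24242 (vehicle) and 23580 (DHT) peaks in the first pair and 7691 and 13546 in the second. None of the 4 lists held a peak in a member. One peak lay within the span of the arrays, in the first vehicle list at chr5:140698595-140699368 with the authors' score of 53.47, and it lies in TAF7, a gene between the β and γ arrays. LNCaP libraries held hardly any α reads, so the lists bear mainly on the β and γ members, and at the depth of these libraries the absence of a peak does not show that PSF is absent.

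Lists of related genes gave a mixed picture. Of 22 symbols listed for nonclustered protocadherins and related large cadherins, 12 could be tested. In 22Rv1 against LNCaP inputs 9 were higher and 0 lower (26.6% and 23.3% of all genes on the chosen rows), and 12 were higher in PSF-RIP (33.3% of all genes, with 27.8% lower). In the inputs 11 of these genes had 10 or more reads in 22Rv1, 2 in LTAD and 3 in LNCaP. The tested genes thus passed the filter on low counts largely through 22Rv1, where they are high, so the count gives no support of its own. PCDH7, a nonclustered protocadherin, had 96 (DHT) and 227 (vehicle) reads in 22Rv1 inputs, 0 and 1 in LTAD and 4 and 3 in LNCaP, and rose by 5.13 ± 0.47 against LNCaP (adjusted p = 4.37e-06, edgeR). PCDH20 had 102 and 40 reads in 22Rv1 inputs, 0 and 0 in LTAD and 7 and 7 in LNCaP.

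Of 22 genes of promoter choice and silencing in the arrays, 21 could be tested, and 14 were higher and 0 lower in PSF-RIP than in input, against 30.5% higher and 27.5% lower of all genes. Among them were TRIM28, a corepressor of repeat elements, by 1.20 ± 0.09, SETDB1, a histone H3 lysine methyltransferase, by 0.94 ± 0.11, and EHMT1 by 0.73 ± 0.09 (adjusted p = 2.39e-10, 2.1e-07 and 5.47e-07, edgeR, higher in 6 of 6 pairs each). Between 22Rv1 and LNCaP inputs 6 of the 21 were higher and 5 lower, near the 26.6% and 23.3% of all genes, with the cohesin subunits RAD21 and STAG1 higher by 1.25 ± 0.15 and 1.65 ± 0.22 (adjusted p = 4.36e-05 and 6.76e-05, edgeR). Of 22 tested genes of cleavage and cytoplasmic partners 7 were higher and 7 lower in PSF-RIP, near the 30.5% and 27.5% of all genes. APH1A, a γ-secretase subunit, fell with -1.34 ± 0.10, and AXIN1, a scaffold of Wnt signalling, rose by 1.12 ± 0.10 (adjusted p = 3.13e-10 and 1.25e-08).

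Of 19 tested neighbours of the arrays on 5q31, 4 were higher and 5 lower in 22Rv1 against LNCaP inputs, near the 26.6% and 23.3% of all genes. TAF7, between the β and γ arrays, was lower in 22Rv1 with -1.26 ± 0.14 in PSF-RIP against LNCaP, and SPRY4 was higher by 4.58 ± 0.39 (adjusted p = 7.78e-06 and 1.77e-06, edgeR).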

How the data were processed

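Whole-number read counts per transcript row were deposited by the authors for 12 libraries of 3 lines. Per the submitters' processing notes, Bowtie2 2.2.6 and TopHat2 2.1.0 were used with hg19. The kit in the labels' protocols keeps strand, and antisense rows are separate. The PSF-CLIP peak lists hold the authors' score per peak, with no strand, and their caller is not given in the sources used here. A further 12 columns of a second LNCaP set and 4 samples whose labels give no clear group were not used.

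Gene rows gave 20294 symbols with 1 row each. A row not listed counts as 0. The main test was the quasi-likelihood test of edgeR 4.0.16 (with limma 3.58.1 in R 4.3.3) after TMM scaling and filterByExpr, with Benjamini-Hochberg adjustment at 0.05 over all genes. PSF-RIP against input used an additive fit of line, treatment and assay over 12 libraries (7 residual degrees of freedom), and the other comparisons a fit in which line and treatment each interact with assay (4 residual degrees of freedom). DESeq2 1.42.0 was an alternative. The scripts were tested on simulated data. PSF-RIP and input of one line and treatment are pairs by their labels, and the block was an alternative. Intervals cover counting error only, since reads are not independent molecules. Floors of 3 reads (summed over a group's libraries) allow for the counting error of the line with no reads and not for that of the other line. Depth was 1073228 to 10439461 mapped reads per library.

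Members called in a comparison (at most 12, by size), the 3 most abundant of each line and the C-type members were to be named with values, and from other lists up to 3 genes with the smallest p. Other members were named after their values were seen. The members, lists and tests were chosen with earlier results of these data known.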

Additional observations from a re-analysis of the deposited data

How the results depend on the processing

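The count of members called for PSF-RIP against input on rows with shared exons was 1. It was 4 with RLE size factors (1 higher, 3 lower), 2 with no filter on low counts, 4 on the rows with the fewest exonic bases, 4 on variable-exon rows, 29 with an offset for exonic length (1 higher, 28 lower) and 9 with the line-treatment pair as a replicate block. It was 1 to 3 with a line left out, highest without LNCaP. On variable-exon rows it was 4, with 2 to 8 when a line was left out (2 without 22Rv1, 8 without LNCaP) and 6 with the replicate block. The replicate block also called 1 member, PCDHB13, in each difference in recovery on both kinds of row, where 0 were called without it. The block was run only for PSF-RIP against input and for the differences in recovery, not for the comparisons of lines or of DHT. For PSF-RIP against input, variable-exon rows in the main fit apart, no share of all genes is given here under the alternatives. Those counts have no background to be set against.

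For 22Rv1 the counts on rows with shared exons became, on the rows with the fewest exonic bases and on variable-exon rows alike, 17 against LNCaP inputs (from 42), 20 against LTAD inputs (from 43), 24 against LNCaP in PSF-RIP (from 45) and 29 against LTAD in PSF-RIP (from 47). With a library left out they were 17 to 40, 35 to 40, 43 to 45 and 40 to 45. The lowest came without the LNCaP vehicle input, and 18 were called without the 22Rv1 vehicle input. On variable-exon rows the ranges were 7 to 13, 11 to 14, 18 to 22 and 20 to 26, and DESeq2 called 10 against LTAD inputs, 15 against LNCaP in PSF-RIP and 14 against LTAD in PSF-RIP. For LTAD against LNCaP in PSF-RIP, 1 member on rows with shared exons became 2 with RLE, 0 with DESeq2, 2 with no filter, 2 with the fewest exonic bases, 2 with the length offset, 3 on variable-exon rows and 0 with each library left out. On variable-exon rows 3 became 5 with RLE, 0 with DESeq2, 5 with no filter, 6 with the length offset and 0 to 1 with a library left out. The cause of these shifts was not tested, except that variable-exon rows leave out shared reads. Variable-exon rows in the main fit apart, no share of all genes is given here for these settings. Their counts have no background to be set against.

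Expressed members in inputs were 28 in 22Rv1, 15 in LTAD and 19 in LNCaP both on the rows with the fewest exonic bases and on variable-exon rows, and 17, 15 and 12 on variable-exon rows scaled to the shallowest line, against 48, 30 and 32 on rows with shared exons. The level of the whole first-intron row of PCDHGA1 in 22Rv1 over LTAD and LNCaP pooled was 1.05 times in PSF-RIP per mapped read and 0.83 times as a share of reads on intron rows, so that scaling turned its direction. Counts for DHT and for LTAD against LNCaP inputs were 0 under every setting run. Of 905 values under the alternatives for the members called in a comparison (at most 12 by size, so without the shared-exon row of PCDHGB5, whose sign turns on its variable exon), 836 kept direction and side of the threshold, 69 no longer passed it and 0 changed direction. A member that was not tested under an alternative, as where it failed the filter on low counts, gave no value there. Such cases are not among the 905 and were not counted as lost. Alternatives on variable-exon rows were chosen after seeing the data. Inputs of 1073228 to 3014049 reads limit what could be detected for members with few reads.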

Other observations

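Plus-strand reads between β genes also differed between lines. After PCDHB13 (chr5:140596994-140601897) they came to 62 (DHT) and 139 (vehicle) in 22Rv1 PSF-RIP, 314 and 255 in LTAD and 80 and 104 in LNCaP, with 27 and 26, 89 and 34, and 54 and 58 in the inputs. After PCDHB2 (chr5:140476965-140479825) they came to 91 and 132 in 22Rv1 PSF-RIP, 54 and 39 in LTAD and 10 and 32 in LNCaP. These stretches were picked after their values were seen and were not tested.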
